A study of Bos taurus with 8 samples.

Results

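Placental lactogen and the prolactin-related proteins are hormones of the ruminant placenta that are made mainly by binucleate trophoblast cells, the large cells that migrate to and fuse with the uterine epithelium. A set of 21 genes followed these hormones from outgrowth to outgrowth in cultures of bovine trophectoderm, the outer cell layer of the embryo. They were chosen from the 14970 genes of the deposited table by their values on the log2(RPKM + 1) scale, where RPKM gives reads relative to exon length and to an adjusted library size. A gene was a member if its highest and lowest libraries differed by at least 1.5 and its Pearson r with the mean of the placental lactogen gene CSH2 and the prolactin-related gene PRP1 was at least 0.85 over 8 libraries. Pregnancy-associated glycoproteins, whose symbols start with PAG, and genes whose symbols start with PRP or CSH, as well as PRL, were left out by name. The range, the correlation and the order of the libraries therefore chose the members, and they are given as a description with no test.

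Each library came from the outgrowth of 1 hatched Bos taurus embryo produced in vitro. Plating took place on day 10 on collagen IV, and the medium was one for trophectoderm growth. All 8 outgrowths shared this treatment, and the day of collection was 35 for libraries A to D and 41 for libraries E to H (n = 4 each). The letters follow the column order of the table, whose headers give the day and not the embryo. Library totals ran from 106402848 to 158034430 reads, as recovered from the RPKM. Library A stood apart over all tested genes, with a mean correlation of 0.954 with the other libraries against 0.966 to 0.976 for the rest. Leaving it out kept all 21 members. The epithelial and trophoblast markers of the labelled tissue were read as a check of the label, and the summed level of 12 of them lay between 12835 and 17034 RPKM, with none of the 12 at 0 in any library. Most of that sum came from SSLP1, KRT8, KRT18 and KRT19, while CDX2 lay between 4.47 and 10.3 RPKM. Each outgrowth is a bulk sample, so fewer cells of a type and less RNA per cell cannot be told apart.

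The members divide by known role into secreted signals and their inhibitors, a granule proteoglycan, cell survival and protease-inhibitor genes, and a run of genes around SECTM1A. PGF encodes placenta growth factor, a ligand of the vascular endothelial growth factor family, and NPPC the precursor of C-type natriuretic peptide. ADM encodes adrenomedullin, a peptide that widens blood vessels, and ESM1 a secreted proteoglycan known from endothelial cells. FST encodes follistatin, which binds activins, and DKK1 a secreted inhibitor of Wnt signalling. SRGN encodes serglycin, the core protein of proteoglycans in secretory granules. BCL2A1 belongs to the survival proteins of the BCL2 family, and SERPINB9 inhibits the protease granzyme B. LIMD2 encodes a LIM domain protein, TCL1B in humans a binding partner of AKT kinases, and PINLYP a protein with phospholipase A2 inhibitor and LY6/PLAUR domains. C21H15orf40 and 7 genes without a symbol complete the set, and those 7 are given by their Ensembl identifiers.

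The reference genes set the order of the libraries. CSH2 (chromosome 23, 35287369 to 35299843; coordinates on ARS-UCD1.2) stood at 5.53, 8.85, 0.243 and 7.13 RPKM in libraries A to D and 19.003, 10.4, 0 and 5.57 RPKM in libraries E to H. PRP1 (chromosome 23, 34765720 to 34777702) stood at 18.3, 26.1, 1.38 and 14.8 RPKM in libraries A to D and 78.5, 53.8, 0 and 23.2 RPKM in libraries E to H. Both were highest in E, next highest in F, low in C and without a read in G. The mean of the 2 genes on the log2(RPKM + 1) scale was 5.32 in E, 4.64 in F, 4.03 in B, 3.66 in H, 3.505 in D, 3.49 in A, 0.783 in C and 0 in G. C and G therefore lay far below the other 6.

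**Figure D1:**
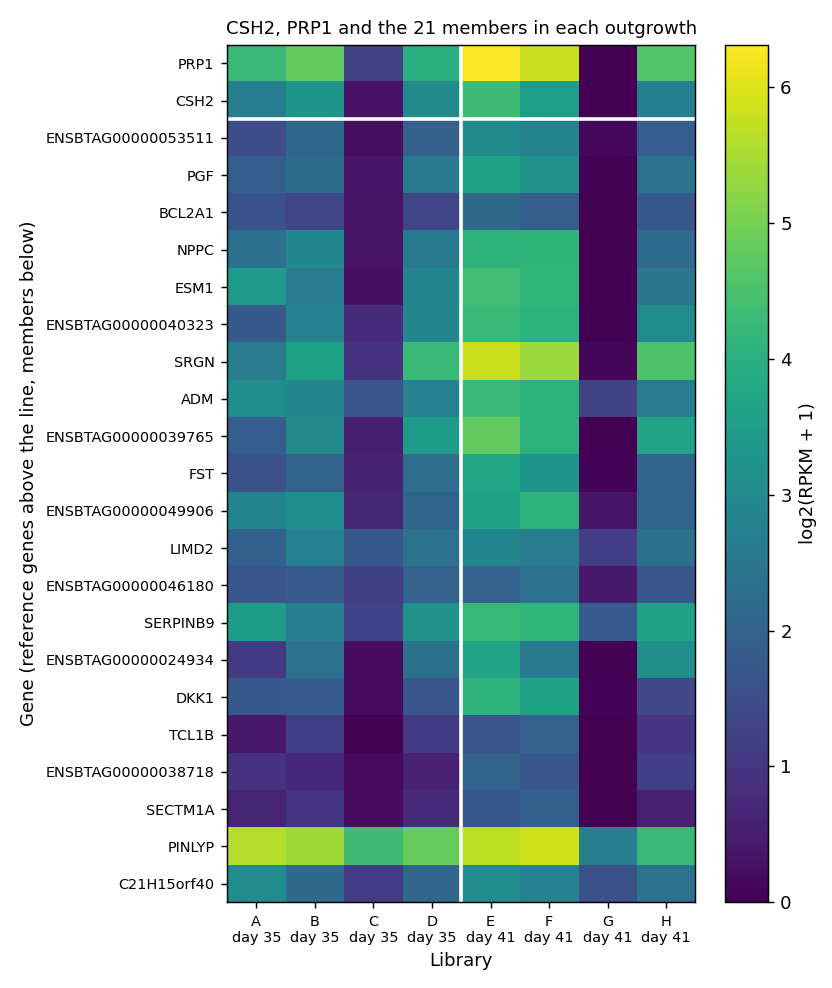
Level of PRP1, CSH2 and the 21 members (rows, members ordered by r) in the 8 libraries (columns, day 35 left of the white line and day 41 right of it), as log2(RPKM + 1). Columns C and G are dark in nearly every row, and E and F are the brightest columns in 18 of the 21 member rows.

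Secreted peptides and proteoglycans that act on blood vessels were highest in E and F. PGF (chromosome 10, 86200949 to 86214110) stood at 2.67, 3.73, 0.279 and 5.19 RPKM in libraries A to D and 11.8, 8.27, 0 and 4.33 RPKM in libraries E to H. NPPC (chromosome 2, 119585852 to 119590637) stood at 3.96, 6.699, 0.25999 and 4.94 RPKM in libraries A to D and 15.8, 16.4, 0 and 3.63 RPKM in libraries E to H. ADM (chromosome 15, 42377564 to 42380500) stood at 7.37, 6.63, 2.204 and 5.92 RPKM in libraries A to D and 18.5, 15.5, 1.44 and 5.29 RPKM in libraries E to H. All 3 were lowest in G and next lowest in C, and highest in E and F, but ADM kept 1.44 RPKM in G where PGF and NPPC had no read. ESM1 (chromosome 20, 24108178 to 24117011) stood at 9.61, 5.43, 0.1903 and 6.41 RPKM in libraries A to D and 19.9, 16.9, 0 and 4.71 RPKM in libraries E to H. Among the outgrowths outside C, E, F and G it was highest in A, as ADM was, and lowest in H. A count of 0 reads in G allows at most 3 reads, or 0.0249 RPKM for a gene with 1 kilobase of exon, counting error only.

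The secreted inhibitors differed in how far E and F stood above the rest. FST (chromosome 20, 25580150 to 25586931) stood at 1.97, 3.05, 0.526 and 3.76 RPKM in libraries A to D and 12.3, 9.01, 0.0444 and 3.19 RPKM in libraries E to H. DKK1 (chromosome 26, 6846290 to 6849518) stood at 2.37, 2.58, 0.148 and 2.22 RPKM in libraries A to D and 15.99, 11.4, 0.0381 and 1.58 RPKM in libraries E to H. DKK1 was above 11 RPKM in E and F and at or below 2.58 RPKM in the other 6 libraries. SRGN (chromosome 28, 25474775 to 25490574) had the largest range of all members, 5.73 on the log2 scale, and stood at 5.31, 11.1, 0.867 and 18.003 RPKM in libraries A to D and 55.3, 40.4, 0.0616 and 22.4 RPKM in libraries E to H. In contrast to ESM1 and ADM, SRGN was lower in A than in B, D and H.

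**Figure D2:**
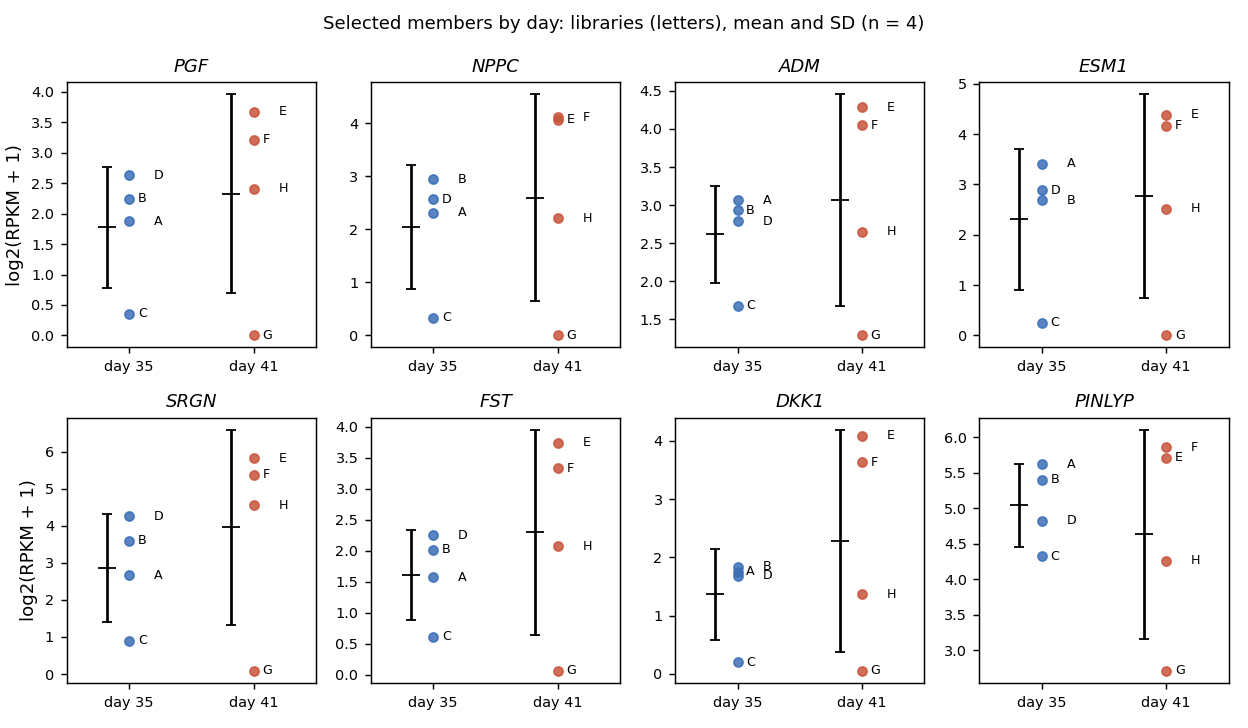
Level of 8 members as log2(RPKM + 1) in each library (letters), by day of collection (blue, day 35; red, day 41), with the mean and SD of the 4 libraries of a day (black). C is the lowest point of day 35 and G the lowest point of day 41 in every panel, and the days overlap in all 8.

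The survival and protease-inhibitor genes were also highest in E and F. BCL2A1 (chromosome 21, 25981584 to 25994592) stood at 1.99, 1.51, 0.257 and 1.49 RPKM in libraries A to D and 3.55, 2.73, 0.0315 and 2.26 RPKM in libraries E to H. SERPINB9 (chromosome 23, 50784498 to 50793488) stood at 10.2, 5.504, 1.43 and 8.39996 RPKM in libraries A to D and 17.9, 16.8, 2.498 and 11.3 RPKM in libraries E to H. SERPINB9 was 1 of 2 members whose lowest library was C and not G, the other being C21H15orf40. LIMD2 (chromosome 19, 47975191 to 47977056) had the smallest range, 1.76, with 1.197 RPKM in G and 6.45 RPKM in E. TCL1B (chromosome 21, 60515459 to 60519098), with 366 bases of exon, ran from 0 reads in G to 146 reads, or 2.98 RPKM, in F. PINLYP (chromosome 18, 51784174 to 51792784) was the most abundant member and stood at 48.2, 41.4, 19.04 and 27.3 RPKM in libraries A to D and 51.4, 56.98, 5.54 and 18.2 RPKM in libraries E to H. It was the exception to the low place of C, since H had less than C. C21H15orf40 (chromosome 21, 23257796 to 23264107) stood at 7.295, 3.58, 1.17 and 3.27 RPKM in libraries A to D and 7.56, 5.91, 1.94 and 4.09999 RPKM in libraries E to H. ENSBTAG00000046180 (chromosome 23, 9813955 to 9817368) stood at 2.18, 2.53, 1.28 and 2.96 RPKM in libraries A to D and 2.97, 4.296, 0.3504 and 2.25 RPKM in libraries E to H. It lies within the span of SRPK1 on the opposite strand and shares 0 exon bases with it.

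Across the set, 20 of 21 members had their 2 lowest libraries in C and G, and 19 were lowest in G. E was the highest library for 15 members and F for the other 6. The exceptions to E and F as the highest pair were LIMD2, with B and E, ENSBTAG00000024934, with E and H, and C21H15orf40, with A and E. The summed level of the 21 genes was 322 RPKM in E and 276 RPKM in F, 122 to 130.1 RPKM in A, B, D and H, 32.3 RPKM in C and 13.6 RPKM in G. In reads this was 65433 in E, 4581 in C and 2416 in G, and 8 members had no read in G. The library totals of C and G were 136116413 and 119797973 reads, inside the range of the others.

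The order of the 4 outgrowths of intermediate level differed between members. Of A, B, D and H, A was the lowest for 10 members, among them SRGN, FST, PGF and 3 of the 4 members around SECTM1A, and the highest for ADM, ESM1, PINLYP and C21H15orf40. H was the highest of these 4 libraries for 7 members, B for 7 and D for 3. Over the 210 pairs of members the Pearson r across the 8 libraries ran from 0.609 to 0.997 with a median of 0.907, and the choice of all members by CSH2 and PRP1 bears on these values.

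Of the 1198 genes past the range limit and not left out by name, the members were 1.75%, and 0 genes had an r of -0.85 or lower. Just inside the limit of r lay C21H15orf40 at 0.854, PINLYP at 0.864 and SECTM1A at 0.873. Just outside it lay ATP2A3, a calcium pump, at 0.838, the mucin gene MUC15 at 0.806 and RNASE1, a secreted ribonuclease, at 0.802. Just inside the limit of the range lay LIMD2 at 1.76, SECTM1A at 1.94 and ENSBTAG00000046180 at 1.97. Just outside it lay ENSBTAG00000046324 at 1.48, SNX22 at 1.47 and ENSBTAG00000053741 at 1.40.

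The likeness was lower for most members without C and G, the 2 libraries farthest from the median of the reference pattern. Over 8 libraries the members' Pearson r ran from 0.854 to 0.980 with a median of 0.943, and their Spearman rho from 0.714 to 0.976 with a median of 0.905. Over the 6 libraries left without C and G, r ran from 0.538 to 0.958 with a median of 0.823, and rho from 0.371 to 0.943 with a median of 0.771. An r of at least 0.85 was kept by 9 members, which were ENSBTAG00000053511, DKK1, FST, NPPC, ADM, SECTM1A, PGF, ENSBTAG00000038718 and ENSBTAG00000040323. Of these, 7 also kept a range of at least 1.5. The lowest values were those of C21H15orf40 at 0.538, ENSBTAG00000046180 at 0.573, PINLYP at 0.593, SERPINB9 at 0.667 and ENSBTAG00000024934 at 0.679. For the 12 members below 0.85 the relation at that limit rested on C and G. The rule applied to the 6 libraries gave 16 genes, of which 7 were members and 9 were not, among them IGFBP1, a binding protein of insulin-like growth factors, and the imprinted gene PEG10.

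**Figure D3:**
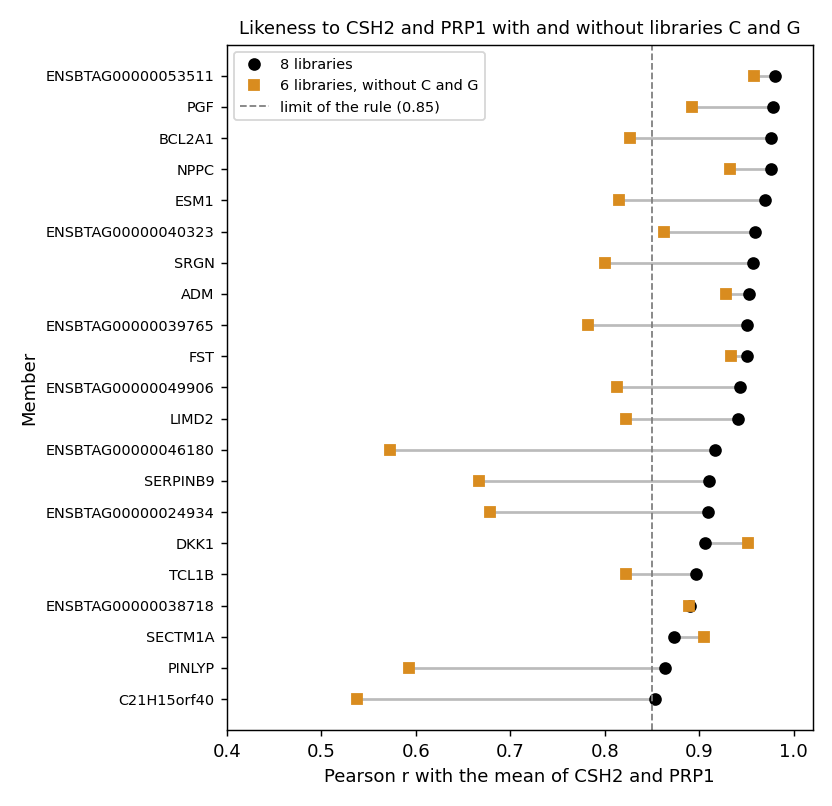
Pearson r of each member (rows) with the mean of CSH2 and PRP1 over 8 libraries (black circles) and over 6 libraries without C and G (orange squares). All circles lie right of the dashed limit of 0.85, and 9 squares do.

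Within a day the pattern had 4 libraries each, and each day holds 1 of the 2 low libraries. On day 35 the members' r had a median of 0.913 and a minimum of 0.786, and on day 41 a median of 0.986 and a minimum of 0.892. An r of at least 0.85 was reached by 17 members on day 35 and by 21 on day 41.

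Members lay close together in the genome at 2 places, a property the rule did not use. On chromosome 19, 4 members lay among 5 neighbouring genes of the table between 50235078 and 50373381, a span of 138 kilobases. ENSBTAG00000039765 stood at 2.73, 6.91, 0.442 and 9.96 RPKM in libraries A to D and 26.5, 15.7, 0 and 11.9 RPKM in libraries E to H. ENSBTAG00000040323 stood at 2.48, 5.85, 0.701 and 6.62 RPKM in libraries A to D and 18.1, 15.3, 0.0146 and 7.43 RPKM in libraries E to H. ENSBTAG00000024934 stood at 1.11, 4.201, 0.156 and 3.996 RPKM in libraries A to D and 11.8, 5.12, 0 and 7.81 RPKM in libraries E to H. All 3 were lower in A than in B, D and H. SECTM1A, named for a secreted and transmembrane protein, stood at 0.576, 0.982, 0.1496 and 0.708 RPKM in libraries A to D and 2.33, 2.83, 0 and 0.504 RPKM in libraries E to H. Unlike the other 3 it was higher in F than in E and lower in H than in A. The remaining gene of the run, SECTM1, had an r of 0.827 but a range of 0.65 and at most 0.571 RPKM. The 5 genes on each side of the run had r between -0.67 and 0.0279 and included NARF, CYBC1, CSNK1D and the fatty acid synthase gene FASN.

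On chromosome 23, 3 members lay among 6 neighbouring genes between 50648861 and 50793488, a span of 145 kilobases that ends with SERPINB9. ENSBTAG00000053511, the member with the highest r, stood at 1.83, 3.34, 0.185 and 2.81 RPKM in libraries A to D and 7.11, 6.02, 0.102 and 2.73 RPKM in libraries E to H. ENSBTAG00000049906 stood at 6.03, 7.39, 0.601 and 3.09 RPKM in libraries A to D and 11.6, 15.6, 0.285 and 3.03 RPKM in libraries E to H. Both have 1137 bases of exon, as does their neighbour ENSBTAG00000053741, which had an r of 0.861 and missed the range limit. SERPINB6 lies in the same span, at 110.04 to 247 RPKM with an r of 0.118, and SERPINB1 lies next to SERPINB9 with an r of 0.366. How alike these neighbours are in sequence was not computed, and near-identical copies may share reads.

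The member ENSBTAG00000038718 (chromosome 23, 34810723 to 34822718) lies between PRP1 and PRP2 in a run of 8 prolactin-related genes, and it stood at 0.852, 0.638, 0.116 and 0.491 RPKM in libraries A to D and 3.04, 2.201, 0 and 1.26 RPKM in libraries E to H. It has no symbol in the table, so the rule's exclusion by name did not reach it. In all, 7 members lay within 1 Mb of another member. Chromosomes 19 and 23 held 5 members each, or 23.8% of the members each, against 6.02% and 3.03% of the genes in the table. The median exon length was 1263 bases for the members and 2329 bases for all genes. No exon of a member overlapped an exon of another gene in the table.

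**Figure D4:**
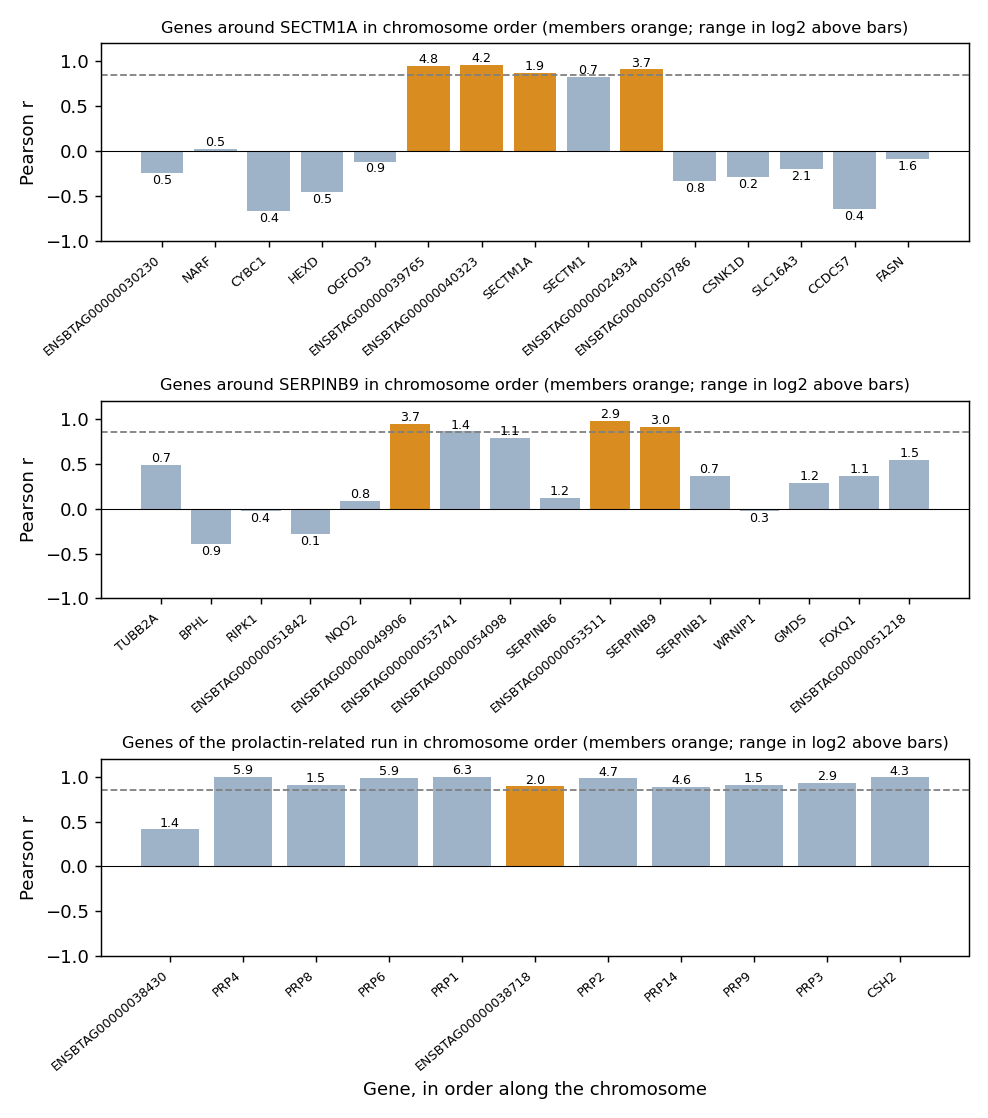
Pearson r with the mean of CSH2 and PRP1 (bars) of neighbouring genes in chromosome order around SECTM1A (top), around SERPINB9 (middle) and along the prolactin-related genes (bottom), with members in orange and the log2 range printed at each bar. The genes on both sides of the SECTM1A run have r of at most 0.0279, and in the bottom panel ENSBTAG00000038430 alone lies below the dashed limit of 0.85.

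Some genes left out by name had the same pattern. Of 10 genes of the prolactin family, 9 met both limits, PRL being the exception. These 9 include CSH2 and PRP1, whose mean is the reference pattern, so their own r was set in part by the rule. Of 18 pregnancy-associated glycoproteins, all on chromosome 29, 6 met both limits. Those 6 were PAG4, PAG21, PAG16, PAG10, PAG20 and PAG7, with r from 0.859 to 0.994. PAG16 stood at 1.99, 6.97, 0.586 and 6.15 RPKM in libraries A to D and 14.2, 12.7, 0.01198 and 6.83 RPKM in libraries E to H. The abundant PAG2, PAG8, PAG11 and PAG12 had r from 0.226 to 0.585. All 4 were lowest in G, as most members were, at 163, 195, 2363 and 109.7 RPKM in that order. In C they held 493, 719, 2609 and 849 RPKM, and for each of them at least 1 library other than G was lower than C. The trophoblast Kunitz-domain protein TKDP4 was low in G, at 169 RPKM, but stood at 3529.8 RPKM in C, where the members were low. The other 19 genes left out by name did not meet the limits, among them splicing factor genes that start with PRPF and a gene on chromosome 14 that carries the symbol PAG1 of a membrane phosphoprotein unrelated to the glycoproteins.

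Markers of other cell types were read beside the members, since SRGN, BCL2A1 and SERPINB9 are known from blood cells and ESM1 and PGF from blood vessels. None of 146 genes on 15 further lists of cell types and pathways reached an r of 0.85, and 45 were past the range limit. Members were 1.75% of the 1198 genes past that limit and not left out by name. At that share a count of 0 among 45 says little about these 146 genes. Of the 125 that were tested between the days by limma-trend, 0 passed the adjusted threshold of 0.05, against 0.0477% of all genes tested, and 19 had an unadjusted p under 0.05, against 11.7% of all genes tested. In the authors' deposited comparison several of these genes had an FDR under 0.05. The share over all genes there was 1.76%, and the share over the lists was not computed. Of the list genes under that FDR, NES, TAGLN, ACTA2, MYL9, CDKN1A and VGLL1 were lower on day 41. COL5A1, CD14 and HSD17B12 were higher. Of the 8 immune markers listed, 4 have values here, with a summed level of 184 to 285 RPKM on day 35 and 231 to 290.1 RPKM on day 41, most of it from AIF1. CD68 lay between 1.76 and 2.18 RPKM in all libraries. CSF1R, a receptor of macrophages and of trophoblast, had the highest r of the lists, 0.784, with 0.7999 RPKM in E, 0.875 RPKM in F and at most 0.401 RPKM elsewhere. The endothelial marker PECAM1 lay between 0.526 and 3.02 RPKM and was as high in C as in H, and it was the 1 of 6 endothelial and blood markers with values here. The part of these markers in the members' pattern was not tested.

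Of 26 genes listed for binucleate and later trophoblast, 23 have values here, 8 were past the range limit and 0 met both limits. The share of members among all genes past the range limit and not left out by name was 1.75%. GCM1, a transcription factor of trophoblast fusion, was at 0 to 0.698 RPKM with an r of 0.715. HAND1, a regulator of giant cells in mice, was at 317 RPKM in C and 308 RPKM in G, inside the 223 to 391 RPKM of the whole set. The steroid enzyme gene HSD3B1 was highest in G, at 253 RPKM, and lowest in C, at 80.6 RPKM. Yolk sac endoderm markers were high in some of the same libraries. AFP, the fetal serum protein alpha-fetoprotein, was at 95.4 RPKM in B, 59.6 RPKM in E, 21.2 RPKM in F and at most 5.75 RPKM elsewhere, and TTR, which carries thyroid hormone, was at 9.197, 8.92 and 4.15 RPKM in the same 3 libraries. The summed level of the 18 measured genes of that list was 185 to 1177 RPKM on day 35 and 371 to 840 RPKM on day 41, with the highest in B, and its part in the members' pattern was not tested.

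Receptors and partners of the members were also read beside them. Of 28 such genes with values, chosen after the members were known, 3 were past the range limit and 0 met both limits. Members were 1.75% of all genes past the range limit and not left out by name, so this count of 0 says little. The r of the 28 ran from -0.618 to 0.625. The adrenomedullin receptor CALCRL was the highest in r, at 9.87 to 15.7 RPKM, while its partner RAMP2 reached at most 0.4503 RPKM and RAMP3 2.69 RPKM. FLT1, the receptor of PGF, reached at most 0.305 RPKM, and NPR2, the receptor of C-type natriuretic peptide, lay between 2.02 and 4.61 RPKM. The activin subunit gene INHBB, whose product follistatin binds, was highest in G, at 72.6 RPKM, and lay between 37.3 and 51.1 RPKM elsewhere. The Wnt coreceptor LRP5, which DKK1 blocks, lay between 19.1 and 30.9 RPKM. Of the 22 tested between the days by limma-trend, 0 passed the adjusted threshold and 3 had an unadjusted p under 0.05, where the share over all genes tested was 11.7%.

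The comparison of the days asked whether the set differed after 6 more days of culture. It was made by limma-trend on log2(RPKM + 1) over the 12582 genes with a minimum of 0.5 RPKM in 4 or more libraries, with Benjamini-Hochberg adjustment and a threshold of 0.05, two-sided. All 21 members reached the filter and 0 passed, against 6 of all genes or 0.0477%. At an unadjusted p under 0.05 the count was also 0, against 11.7% of all genes. By unweighted limma-voom on the recovered reads 0 members passed either threshold. The adjusted p of the members lay between 0.577 and 0.986. An FDR under 0.05 was reached by 0 members in the authors' deposited table, against 1.76% of all genes, and the lowest FDR there was 0.437, for DKK1. In 0 members did all libraries of 1 day lie above all of the other, against 8.2% of the genes tested.

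By sign, 19 members had a higher and 2 a lower mean on day 41, with a median log2 fold change of 0.52 against 0.01 over all genes tested. The count and the size differed between methods; the cause was not tested. Unweighted limma-voom put 12 of 21 higher with a median of 0.18, and limma-voom with quality weights put 21 higher with a median of 1.90. All 21 were higher in the authors' deposited table, with log2 fold changes from 0.03 to 1.99. Since the members were chosen to follow the same 8 libraries, their signs are not separate observations. The SEs, from 0.39 to 1.25 with a median of 0.66, were wide beside the median of 0.14 over all genes. Each day holds 1 of the low outgrowths C and G. SRGN had the largest difference, with 8.83 ± 7.42 RPKM at day 35 against 29.5 ± 23.8 RPKM at day 41 (SD, n = 4; limma-trend log2 fold change 1.10, SE 1.25, adjusted p = 0.781). DKK1 averaged 1.83 ± 1.13 RPKM at day 35 against 7.24 ± 7.69 RPKM at day 41 (limma-trend log2 fold change 0.92, SE 0.86, adjusted p = 0.724). PINLYP had the largest difference in the other direction, with 33.99 ± 13.2 RPKM at day 35 against 33.03 ± 25.1 RPKM at day 41 (limma-trend log2 fold change -0.41, SE 0.66, adjusted p = 0.857). The smallest unadjusted p was that of ENSBTAG00000038718 (log2 fold change 0.63, SE 0.40, adjusted p = 0.577 by limma-trend). Without G all 21 had a higher mean on day 41, with a median log2 fold change of 1.13. In that limma-trend fit 12 had an unadjusted p under 0.05, against 1348 of all 12511 genes tested. The adjusted threshold was passed by 0 members, against 5 of all genes. Without C the median was 0.14, with 15 members higher.

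The reference pattern was compared in the same way. The mean of CSH2 and PRP1 was 2.95 ± 1.47 on day 35 and 3.40 ± 2.37 on day 41 on the log2(RPKM + 1) scale (SD, n = 4; exact permutation p = 0.657, two-sided, where the smallest possible is 0.0286). The difference of 0.45 was smaller than the spread between outgrowths of 1 day, and its direction turned without C, without E and with a pseudocount of 0.1.

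**Figure D5:**
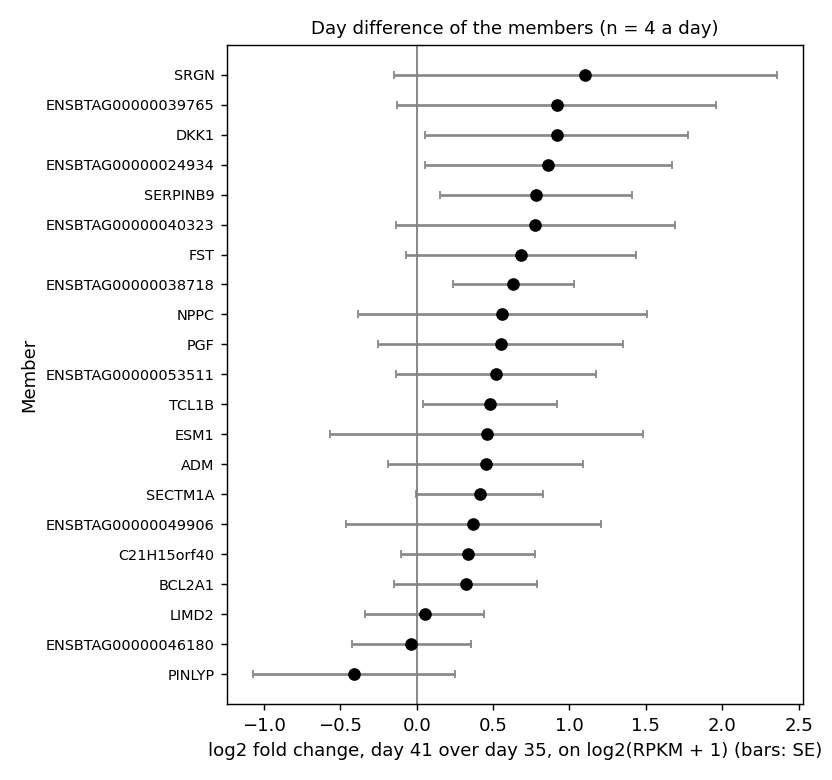
Log2 fold change of each member between day 41 and day 35 on the log2(RPKM + 1) scale by limma-trend, with its SE as bars (n = 4 a day). The values run from -0.41 for PINLYP to 1.10 for SRGN, and none passed the adjusted threshold.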

How the data were processed

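RNA of 8 trophectoderm outgrowths was sequenced. Per the submitters' processing notes the tools were FastQC, HISAT2, featureCounts and edgeR and the genome build was ARS-UCD1.2; their versions and settings are not given in the sources used here. The deposited table holds RPKM per library computed by the authors. For the contrast of day 41 with day 35, the authors deposited a log2 fold change, a mean log2 CPM, a likelihood ratio score, a p-value and an FDR per gene. RPKM times exon length was a whole multiple of 1 step per library within 0.01 for 100% of values above 0, which gave the reads.

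Correlations, ranges and summaries were computed in Python 3.11.15 with pandas 2.3.3, and limma 3.58.1 (R 4.3.3) was used between the days. How both steps behave at the spread and the day differences of these members was not tested. A pseudocount of 1 compresses differences between low values. The members' median day difference did not rise steadily with smaller pseudocounts, being 0.52 with 1, 0.53 with 0.5 and 0.44 with 0.1. The members and lists were chosen with earlier results of these data known. Named are CSH2, PRP1, the members leading by r, range, level or day p, members with a textbook role or within 1 Mb of another, and the 3 genes on each side of each limit; neighbours, partners and list genes beyond these were chosen after their values were seen. Nothing in the labels says whether the outgrowths share parents, so p-values measure the spread between these samples. No molecular identifiers are stated, so limits from counts cover counting error only.

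The alternatives were other pseudocounts (0.1 and 0.5), limits, filters and reference genes, Spearman rho, median-of-ratios factors, limma-voom (recovered reads; unweighted or with quality weights), and leaving out libraries. Leaving out C and G together, and the alternatives for the reference pattern and the within-day correlation, were added after seeing the data. Promoter motifs had been planned and were not analysed here.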

Additional observations from a re-analysis of the deposited data

Results flagged for a closer look

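The log2(RPKM + 1) values of each member and both reference genes were compared within each day, in 46 groups of 4 libraries, for a library far from the other 3. DKK1 in library C on day 35 was the 1 case in which the gap to the nearest library, as a share of the group's range, exceeded Dixon's 95% critical value for 4 values. It stood at 0.148 RPKM, against 2.22 to 2.58 RPKM in A, B and D, and the gap was 0.908 of the range. The members were chosen on these same values for following genes that are low in C and G, so this is a description and not a test, and the rate of about 1 in 20 that chance gives in unselected groups does not apply.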

How the results depend on the processing

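The set held 21 members under the rule and 16 to 31 under the alternatives, with the exception of a pseudocount of 0.1, which gave 43 genes, 20 of them members. Leaving out 1 library gave 19 to 31 genes. Without G, 17 members were kept, and ENSBTAG00000046180, LIMD2, PINLYP and SECTM1A left. Spearman rho gave 24 genes, of which 16 were members. Without C and G together 16 genes met the limits and 7 were members.

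No member passed the adjusted threshold between the days under any alternative for which members were counted. For the fit without C and G together that count was not taken. Its median log2 fold change of the members was 0.73, with 20 members higher on day 41. An unadjusted p under 0.05 was reached by 2 members by limma-voom with quality weights, against 3320 of all 12582 genes tested. By limma-trend without G it was reached by 12 members, against 1348 of all 12511 genes tested. The members' median log2 fold change on the log2(RPKM + 1) scale ran from 0.14 to 1.13 over the leave-one-out fits. Of all genes, 3 passed with a pseudocount of 0.1, 3 without a filter, 2 by limma-voom and 652 by limma-voom with quality weights, and 0 to 43 without 1 library. The day difference of the reference pattern was -0.030 with a pseudocount of 0.1, -0.27 without C and -0.18 without E, and over all leave-one-out values it ran from -0.27 to 1.59. No paired analysis was possible because the column headers carry no embryo numbers and the sample titles of the days share only a single number. Whether that number marks 1 embryo collected on both days is not stated. At 106402848 reads or more per library, depth limits the members with few reads, such as TCL1B with 15 reads in A.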
